A study of Mus musculus with 6 samples.

Results

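A set of 10 genes was followed in cultured mouse chondrocytes: 9 that encode cytokines or chemokines (*Cxcl1*, *Cxcl5*, *Cxcl12*, *Ccl2*, *Ccl7*, *Il6*, *Il11*, *Lif* and *Csf1*) and *Ptgs2*, which encodes the inducible cyclooxygenase of prostaglandin synthesis. They were taken by gene symbol from the 41388 genes counted in each library, and all 10 were found. The chondrocytes, the cells that build and maintain cartilage, came from the femoral heads of male mice aged 21 days on a mixed B6/129 background, and were lysed for RNA once they had spent 2 days in culture without any treatment. There were 3 libraries from *Postn-/-* mice, which are homozygous for a knockout allele of the gene for periostin, a secreted matrix protein of connective tissue, and 3 from *wt* mice. The mutation is constitutive, so a difference between genotypes in these cultures can have arisen before or after isolation. The study's methods give as many mice as libraries in each genotype, and the labels do not say in so many words that each library came from its own mouse.

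Chemokines are small secreted proteins that attract leukocytes through G protein-coupled receptors. *Cxcl1* and *Cxcl5* act on neutrophils through *Cxcr2*, *Ccl2* and *Ccl7* act on monocytes through *Ccr2*, and *Cxcl12* acts on progenitor cells and lymphocytes through *Cxcr4*. *Il6*, *Il11* and *Lif* belong to the IL-6 family, whose receptors all use gp130 (encoded by *Il6st*), while *Csf1* keeps macrophages and osteoclast precursors alive. In chondrocytes, IL-1 and similar signals can switch on many of these genes together through NF-kappaB and C/EBP factors, and the resulting mediators are studied in osteoarthritis because they accompany loss of cartilage matrix.

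Total counts ran from 20587640 to 26572260 per library, at which 3 counts corresponded to 0.113 to 0.146 CPM (counts scaled to the library total). All CPM values of genes also carry edgeR's TMM factors for library composition. *Postn* itself was at 4.66, 4.27 and 5.67 CPM in the *Postn-/-* libraries and at 10.1, 10.3 and 6.90 CPM in the *wt* libraries, lower in all 3 *Postn-/-* libraries but not absent, and the part of the transcript these reads come from was not examined here. Chondrocyte markers were abundant in every library, with summed levels over 14 of 14 detected genes of 37158 to 49629 CPM in the *Postn-/-* libraries, against 31354 to 45371 CPM in *wt*. The sum of 16 macrophage and leukocyte markers was 42.2 to 67.0 CPM in the *Postn-/-* libraries, against 26.3 to 44.1 CPM in *wt*. The neutrophil markers *S100a8* and *S100a9* had at most 5 and 7 counts in any library, with no count in 1 and 3 of the 6 libraries. On the first principal component over all tested genes (31.9% of the variance) *wt* replicate 1 lay at 47.7 and the other libraries between -17.4 and -0.02, so that 1 *wt* library stood apart from the other 5.

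The 10 genes spanned a wide range of levels in unstimulated culture. *Csf1* and *Ptgs2* were the most abundant, and *Il6* alone stayed under the detection filter (above 1 CPM in at least 2 libraries). Per kilobase of exon, which allows levels of different genes to be compared, *Csf1* averaged 78.9 ± 19.3 CPM per kilobase over the 6 libraries (SD), *Ptgs2* 27.6 ± 16.2, *Cxcl1* 4.57 ± 4.92, *Cxcl12* 3.10 ± 1.85, *Ccl7* 2.04 ± 1.87, *Cxcl5* 1.99 ± 2.82, *Ccl2* 1.78 ± 0.97, *Il11* 0.83 ± 0.24, *Il6* 0.39 ± 0.14 and *Lif* 0.38 ± 0.28. *Csf1* and *Ptgs2* were the only neighbours in this order whose ranges over libraries did not overlap. *Ptgs2* also exceeded *Cxcl1*, and *Ccl2* exceeded *Il11*, within each of the 6 libraries, whereas *Cxcl5* and *Ccl2*, or *Il6* and *Lif*, changed places in 3 of 6.

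**Figure D1:**
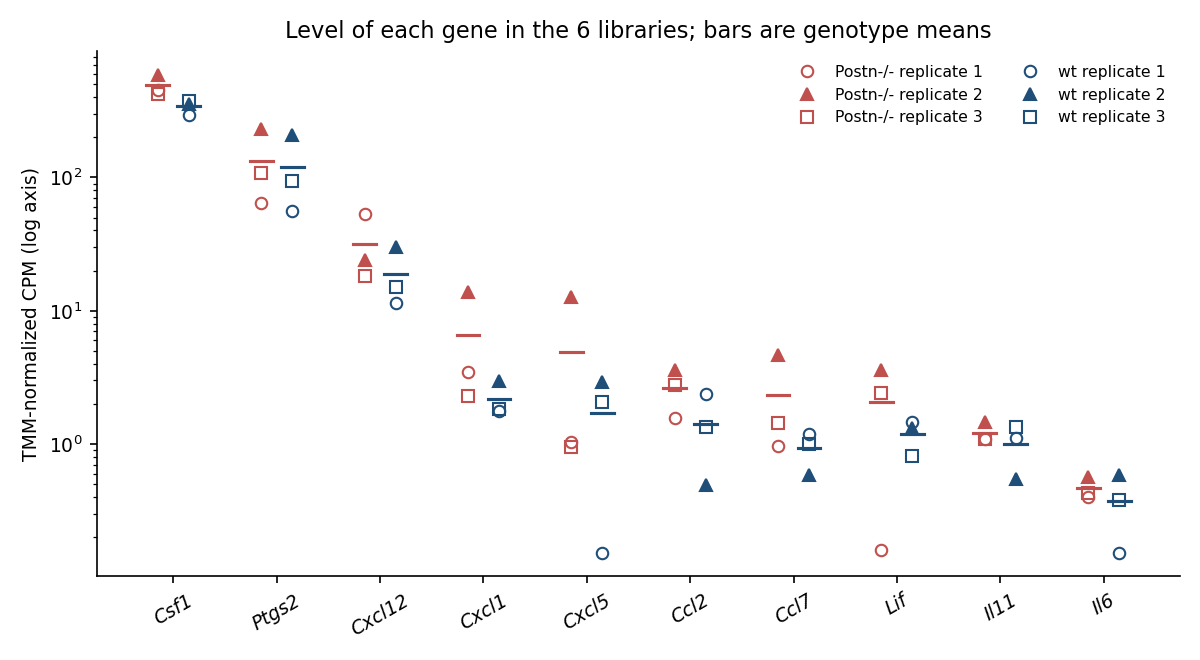
TMM-normalized CPM of each gene (log axis) in the 3 Postn-/- libraries (red) and the 3 wt libraries (blue), ordered by mean level; circles, filled triangles and squares are replicates 1, 2 and 3, and bars are genotype means. The filled red triangle, Postn-/- replicate 2, is the highest point for 8 of the 10 genes, and Csf1 alone has all red points above all blue points.

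For 7 of the 10 genes (all but *Cxcl5*, *Ccl2* and *Ccl7*), matched by symbol to RefSeq promoter sequences of GRCm38.p6, the 250 bases before the start site were searched on both strands for letters that these transcription factors are known to prefer. The NF-kappaB consensus was found before *Cxcl1*, *Il6* and *Csf1*, and before 3.90% of all 32851 promoters. The C/EBP letters TTNNGNAA were found before *Ptgs2*, with 2 matches, and *Il6*, and before 36.8% of all promoters. The AP-1 letters TGANTCA were found before *Il6* and *Lif* and before 1 of the 2 start sites listed for *Il11*, the inner one, and before 6.75% of all promoters. The 160 bases that end at the base before the start site follow, 5′ to 3′ on the strand of the gene, for the 4 genes with an NF-kappaB or C/EBP match there, with those matches in capitals. No AP-1 match lies in the stretches shown. These are matches of letters, and binding was not measured.

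Cxcl1 (chr5:90891085-90891244, plus strand): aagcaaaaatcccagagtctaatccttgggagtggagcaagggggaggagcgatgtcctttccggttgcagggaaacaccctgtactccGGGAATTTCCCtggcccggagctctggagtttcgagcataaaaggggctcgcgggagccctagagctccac

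Il6 (chr5:30012954-30013113, plus strand): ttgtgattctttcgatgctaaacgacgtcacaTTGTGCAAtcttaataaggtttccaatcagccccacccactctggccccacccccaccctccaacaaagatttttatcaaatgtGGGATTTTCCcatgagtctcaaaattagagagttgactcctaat

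Csf1 (chr3:107760470-107760629, minus strand): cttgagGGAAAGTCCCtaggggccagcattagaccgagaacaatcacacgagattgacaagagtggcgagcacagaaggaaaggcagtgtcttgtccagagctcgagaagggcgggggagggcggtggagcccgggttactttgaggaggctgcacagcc

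Ptgs2 (chr1:150099871-150100030, plus strand): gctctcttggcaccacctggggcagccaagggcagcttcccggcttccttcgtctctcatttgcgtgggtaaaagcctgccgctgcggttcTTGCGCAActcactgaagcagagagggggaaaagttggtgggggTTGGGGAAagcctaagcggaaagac

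The *Cxcl1* capitals, 71 to 61 bases before its start, are 2 overlapping matches on one stretch of 11 bases. The *Il6* promoter holds a C/EBP match at 128 to 121 bases and an NF-kappaB match at 44 to 35 bases before the start. Distances run from the start sites of the promoter sequences, which for *Cxcl1* and *Il6* are not the gene starts given below. The *Csf1* match lies farther out, at 154 to 145 bases, and the *Ptgs2* matches lie at 69 to 62 and at 25 to 18 bases. Of the 2 tested genes with an NF-kappaB match, *Cxcl1* differed 7.82-fold between its highest and lowest library, and *Csf1* 2.00-fold.

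Among the CXC chemokines, *Cxcl1* and *Cxcl5* had their highest level in the same single library. *Cxcl1* (ENSMUSG00000029380, chromosome 5 of GRCm38, 90891241 to 90893115, plus strand), a ligand of *Cxcr2*, was at 3.46, 13.8 and 2.29 CPM in the *Postn-/-* libraries, against 1.77, 2.99 and 1.82 CPM in *wt*. *Postn-/-* replicate 2 was far above the other 5 libraries, *Postn-/-* replicate 3 lay below *wt* replicate 2, and the genotypes overlapped. The means were 6.52 ± 6.35 and 2.19 ± 0.69 CPM (SD, n = 3 each), which gave a log2 fold change (log2FC, *Postn-/-* over *wt*) of 1.58 (SE 0.65, 95% interval 0.07 to 3.08). In the quasi-likelihood test of edgeR the unadjusted p was 0.042, and the adjusted p (Benjamini-Hochberg) was 0.717. Without *Postn-/-* replicate 2 the log2FC of *Cxcl1* was 0.39 and the unadjusted edgeR p was 0.297. Without *wt* replicate 1 it was 1.44 (unadjusted p = 0.105, adjusted p = 0.834 by edgeR), and without *wt* replicate 3 it was 1.46 (unadjusted p = 0.116, adjusted p = 0.724 by edgeR).

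*Cxcl5* (ENSMUSG00000029371, chromosome 5, 90759299 to 90761625, plus strand), whose product also acts on *Cxcr2*, lies 129.6 kb from *Cxcl1*. It was at 1.04, 12.6 and 0.95 CPM in the *Postn-/-* libraries, against 0.15, 2.94 and 2.06 CPM in *wt*. This was the most variable of the 10 genes: the highest library (310 counts) and the lowest (4 counts, *wt* replicate 1) differed 82.0-fold. Replicate 2 was the highest library within each genotype, and the genotypes overlapped. The log2FC was 1.53 (SE 1.14, 95% interval -1.11 to 4.16, adjusted p = 0.750 by edgeR), and it turned to -0.76 without *Postn-/-* replicate 2. Of the 50-base words in its transcripts, 0.69% also occur in other genes.

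*Cxcl12* (ENSMUSG00000061353, chromosome 6, 117168535 to 117181367, plus strand), a stromal chemokine that retains progenitor cells in bone marrow, had its highest level in another library. It was at 53.1, 24.0 and 18.3 CPM in the *Postn-/-* libraries, against 11.4, 30.2 and 15.2 CPM in *wt*. Its highest library was *Postn-/-* replicate 1, *wt* replicate 2 came next, and the genotypes overlapped. Its log2FC was 0.75 (SE 0.47, 95% interval -0.33 to 1.83, adjusted p = 0.730 by edgeR). It was 0.16 without *Postn-/-* replicate 1 and 1.26 (unadjusted p = 0.0262, adjusted p = 0.567 by edgeR) without *wt* replicate 2.

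The CC chemokines *Ccl2* and *Ccl7*, 2 monocyte attractants whose genes lie 8.26 kb apart on chromosome 11, had the same highest and the same lowest library. *Ccl2* (ENSMUSG00000035385, 82035571 to 82037453, plus strand) measured 1.57, 3.58 and 2.76 CPM in the *Postn-/-* libraries, against 2.38, 0.50 and 1.34 CPM in *wt*. *Ccl7* (ENSMUSG00000035373, 82045712 to 82047525, plus strand) measured 0.96, 4.64 and 1.43 CPM in the *Postn-/-* libraries, against 1.19, 0.59 and 1.01 CPM in *wt*. *Postn-/-* replicate 2 was highest and *wt* replicate 2 lowest for both, and the genotypes overlapped, since *Postn-/-* replicate 1 was exceeded by *wt* replicate 1 for *Ccl2* and by *wt* replicates 1 and 3 for *Ccl7*. The log2FC of *Ccl2* was 0.89 (SE 0.53, 95% interval -0.33 to 2.10, adjusted p = 0.720 by edgeR). That of *Ccl7* was 1.33 (SE 0.61, 95% interval -0.07 to 2.73, unadjusted p = 0.0603, adjusted p = 0.717 by edgeR).

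The size of these differences depended on single libraries. Leaving out *Postn-/-* replicate 2 gave a log2FC of 0.60 for *Ccl2* and 0.35 for *Ccl7*, and leaving out *wt* replicate 2 gave 0.49 and 1.09. Without *wt* replicate 1, *Ccl2* was at 1.52 (unadjusted p = 0.0224, adjusted p = 0.833 by edgeR). *Ccl7* was at 1.70 and 1.58 (unadjusted p = 0.0166 and 0.0459, adjusted p = 0.772 and 0.983 by edgeR) without *Postn-/-* replicates 1 and 3. *Ccl2* shares its place with the antisense gene *Gm17268*, which had 1 count in 1 library and none in the other 5; the sources do not state whether counting used strand. Among the macrophage markers, *Cd68* was lowest in *wt* replicate 2, as *Ccl2* was, at 13.7, 14.0 and 22.9 CPM in the *Postn-/-* libraries, against 17.9, 5.29 and 10.97 CPM in *wt*. *Lyz2*, another of them, had a different order, at 27.5, 7.20 and 7.86 CPM in the *Postn-/-* libraries, against 5.81, 9.14 and 14.2 CPM in *wt*, and was highest where *Ccl2* was lowest within *Postn-/-*. The part of macrophages in the level of *Ccl2* was not tested.

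The IL-6 family was sparse. *Il6* (ENSMUSG00000025746, chromosome 5, 30013161 to 30019968, plus strand), an inflammatory cytokine that signals through gp130, had 10, 14 and 9 counts in *Postn-/-* and 4, 13 and 8 counts in *wt*, or 0.40, 0.57 and 0.43 CPM against 0.15, 0.59 and 0.38 CPM. All 6 libraries were above the 3-count limit, none reached 1 CPM, and the genotypes overlapped. *Il6* therefore entered no test. In a fit without the filter, edgeR gave it a log2FC of 0.32 and an unadjusted p of 0.535, so no difference was detected at 4 to 14 counts per library.

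*Il11* (ENSMUSG00000004371, chromosome 7, 4773055 to 4782857, minus strand), a gp130 cytokine linked to fibrosis and bone remodelling, was at 1.08, 1.46 and 1.10 CPM in the *Postn-/-* libraries, against 1.11, 0.54 and 1.34 CPM in *wt*. It varied least of the chemokines and IL-6 family genes, 2.70-fold from *wt* replicate 2 to *Postn-/-* replicate 2, with overlapping genotypes. By genotype, its log2FC was 0.28 (SE 0.37, 95% interval -0.57 to 1.13, adjusted p = 0.851 by edgeR), and it was -0.01 without *wt* replicate 2. Of its 50-base words, 3.13% also occur in other genes.

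*Lif* (ENSMUSG00000034394, chromosome 11, 4257557 to 4272514, plus strand), leukemia inhibitory factor, was at 0.16, 3.62 and 2.43 CPM in the *Postn-/-* libraries, against 1.46, 1.31 and 0.81 CPM in *wt*. The *Postn-/-* libraries held both its highest values and its lowest, 4 counts in replicate 1, so the *wt* values lay inside the *Postn-/-* range. The estimated log2FC was 0.78 (SE 0.79, 95% interval -1.04 to 2.59, adjusted p = 0.814 by edgeR). It was 1.33 without *Postn-/-* replicate 1 (unadjusted p = 0.00669, adjusted p = 0.772 by edgeR) and 0.07 without *Postn-/-* replicate 2.

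*Csf1* (ENSMUSG00000014599, chromosome 3, 107741048 to 107760469, minus strand), the macrophage colony-stimulating factor, was the only one of the 10 genes whose genotypes did not overlap. It was at 452, 590 and 425 CPM in the *Postn-/-* libraries, against 295, 353 and 376 CPM in *wt*. Every *Postn-/-* library exceeded every *wt* library, and the lowest *Postn-/-* library was above the highest *wt* library by less than the SD of the *Postn-/-* group. The means were 489 ± 88.4 and 341 ± 41.5 CPM (SD, n = 3 each), a 1.43-fold difference (95% interval 1.11 to 1.85). On the log2 scale this was 0.52 (SE 0.16, 95% interval 0.15 to 0.89), unadjusted p = 0.0121 and adjusted p = 0.717 by edgeR, so the call did not pass adjustment over 14533 genes. The log2FC of *Csf1* stayed between 0.36 and 0.61 in 16 alternative analyses, each with an unadjusted p under 0.05 (0.00296 to 0.0462) and an adjusted p of 0.238 to 0.983. *Csf1* lies on the same chromosome as *Postn*, 53.4 Mb away.

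*Csf1r*, the receptor through which *Csf1* acts on macrophages, was at 1.61, 1.83 and 1.05 CPM in the *Postn-/-* libraries, against 1.27, 1.13 and 1.10 CPM in *wt*, with overlapping genotypes and a log2FC of 0.36 (SE 0.29, adjusted p = 0.765 by edgeR). The macrophage marker *Cd14* was at 8.20, 9.23 and 6.53 CPM in the *Postn-/-* libraries, against 9.54, 2.71 and 5.56 CPM in *wt*. Of the 7 macrophage and leukocyte markers tested, 7 had a positive log2FC (median 0.44) and none reached an unadjusted p of 0.05 by edgeR. Of all genes tested, 50.8% were positive with a median of 0.0042, and 6.3% reached that threshold. *C1qa*, 1 of the 7, was above 1 CPM only in *Postn-/-* replicates 1 and 3. It passed the filter through that genotype alone, so its sign was partly set by the filter. In these bulk samples more cells of a type and more RNA per cell cannot be told apart.

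*Ptgs2* (ENSMUSG00000032487, chromosome 1, 150100031 to 150108227, plus strand), the cyclooxygenase that makes prostaglandin H2 in inflamed tissue, had its libraries in the same order of replicate number in both genotypes. It was at 64.1, 229 and 108 CPM in the *Postn-/-* libraries, against 56.1, 207 and 93.5 CPM in *wt*. Both replicate 2 libraries were high, both replicate 1 libraries were low, and the genotypes overlapped throughout. With all libraries, the log2FC was 0.17 (SE 0.55, 95% interval -1.11 to 1.45, adjusted p = 0.947 by edgeR). It was -0.47 without *Postn-/-* replicate 2, -0.17 without *wt* replicate 1 and 0.84 without *wt* replicate 2. These omissions each removed only 1 of 2 libraries with the same number. At each replicate number the *Postn-/-* value was above the *wt* value. With the replicate number as a block the log2FC was 0.18 (unadjusted p = 0.0801, adjusted p = 0.603 by edgeR), and without replicate 2 of both genotypes it was 0.21.

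Of the 9 genes tested, none had an adjusted p of 0.05 or less by edgeR, where 0.0138% of all genes did. DESeq2's Wald test and limma with voomWithQualityWeights, with or without surrogate variables, also gave 0 of 9. At an unadjusted p of at most 0.05, edgeR gave 2 genes higher in *Postn-/-* (*Cxcl1* and *Csf1*) and none lower, beside 3.95% and 2.35% of all genes (6.3% in either direction). DESeq2 gave 3 higher (with *Ccl7*), where it called 873 of all 14533 genes in either direction. Only *Csf1*, 1 of the 9, was higher without overlap and none was lower without overlap, beside 7.03% and 6.57% of all genes. All 9 log2FC values were positive, with a median of 0.78, where 50.8% of all genes were positive with a median of 0.0042. With voomWithQualityWeights and no surrogate variables all 9 were again positive but the median was 0.40, with *Cxcl5* at 0.40 in place of 1.53 and *Lif* at 0.29 in place of 0.78. Without *Postn-/-* replicate 2 the numbers were 7 positive and 2 negative with a median of 0.35, and without replicate 2 of both genotypes 7 and 2 with a median of 0.20. Without *wt* replicate 1, and likewise without *wt* replicate 2, 8 were positive and 1 negative.

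**Figure D2:**
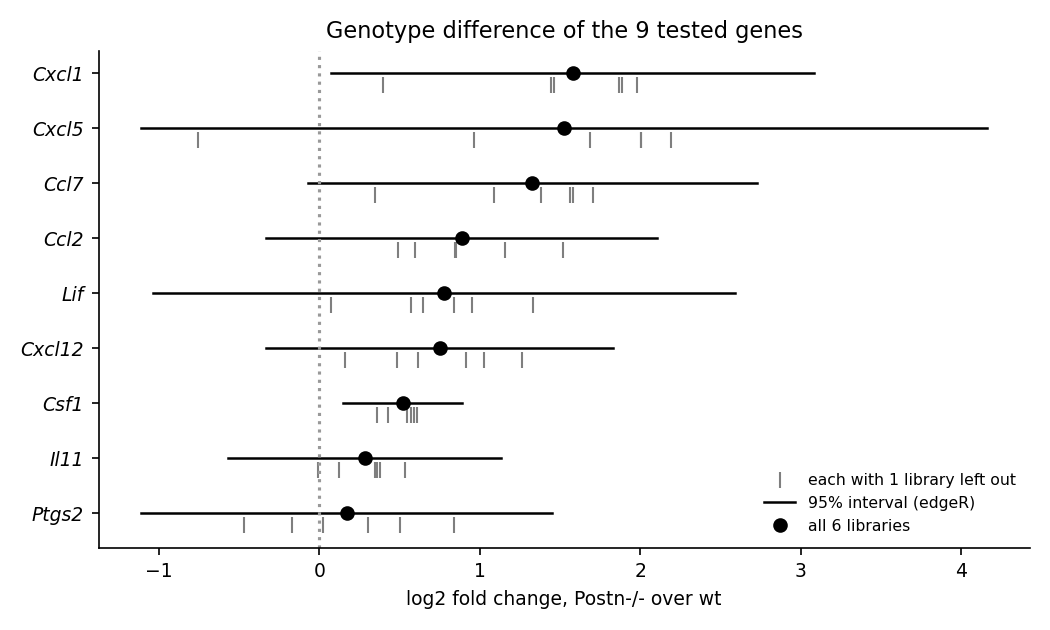
Log2 fold change of the 9 tested genes, Postn-/- over wt: dots are the edgeR estimates from all 6 libraries, lines their 95% intervals and grey ticks the estimates with each library left out in turn. The intervals of Csf1 (0.15 to 0.89) and Cxcl1 (0.07 to 3.08) exclude 0, and grey ticks of Cxcl5, Il11 and Ptgs2 fall on both sides of 0.

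The genes varied between libraries of one genotype more than most genes. Their median biological coefficient of variation in the edgeR fit was 0.47, where the median over all tested genes was 0.18, and 7 of the 9 exceeded 0.31, the value that 1 gene in 10 exceeds. *Csf1*, at 0.16, was the exception below the median, and *Il11* was at 0.26. The genes compared were not matched to the set by level, and the part of low counts in these values was not tested. *Postn-/-* replicate 2 was the highest of the 6 libraries for 8 of the 9 tested genes, all but *Cxcl12*, where it was the highest for 15.0% of all genes. This was not particular to the set. In the lists described below, it was the highest for 17 of 32 NF-kappaB and gp130 genes and 5 of 11 tested prostanoid genes. The same held for 3 of 9 tested other chemokines, but for 0 of 14 chondrocyte markers. The lowest library was *wt* replicate 1 for 6 of the 10 genes and *wt* replicate 2 for *Ccl2*, *Ccl7* and *Il11*. Over all genes *wt* replicate 1 was extreme in both directions, lowest for 26.1% and highest for 24.6%, the largest share of any library in each.

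Receptors for these ligands were present in part. The gp130 chain *Il6st* averaged 12.4 CPM per kilobase over the 6 libraries, the IL-11 receptor chain *Il11ra1* 11.7 and the LIF receptor *Lifr* 10.2, and the *Cxcl12* scavenger receptor *Ackr3* was at 6.21. *Il6ra*, the IL-6 binding chain, was lower at 1.04, and the prostaglandin E receptor *Ptger1* was at 0.90. The leukocyte receptors *Cxcr2* (2 to 11 counts), *Cxcr4* (6 to 16 counts) and *Ccr1* (4 to 12 counts) were near the counting limit, and so was the receptor *Ptger2* (5 to 11 counts). *Ccr2*, the receptor for *Ccl2* and *Ccl7*, had 23 to 35 counts per library and was tested, with a log2FC of -0.22 (SE 0.32, adjusted p = 0.862 by edgeR). *Il6st* was the only one of 8 tested receptors with an unadjusted p of at most 0.05, and all 3 *Postn-/-* libraries (148, 161 and 139 CPM) were above the *wt* libraries (129, 123 and 125 CPM). Its log2FC was 0.25 (SE 0.10, unadjusted p = 0.0371, adjusted p = 0.717 by edgeR). Over all genes tested, 6.3% reached this threshold in either direction and 7.03% were higher without overlap. None of the other 10 receptors of the list of 18 passed the filter.

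**Figure D3:**
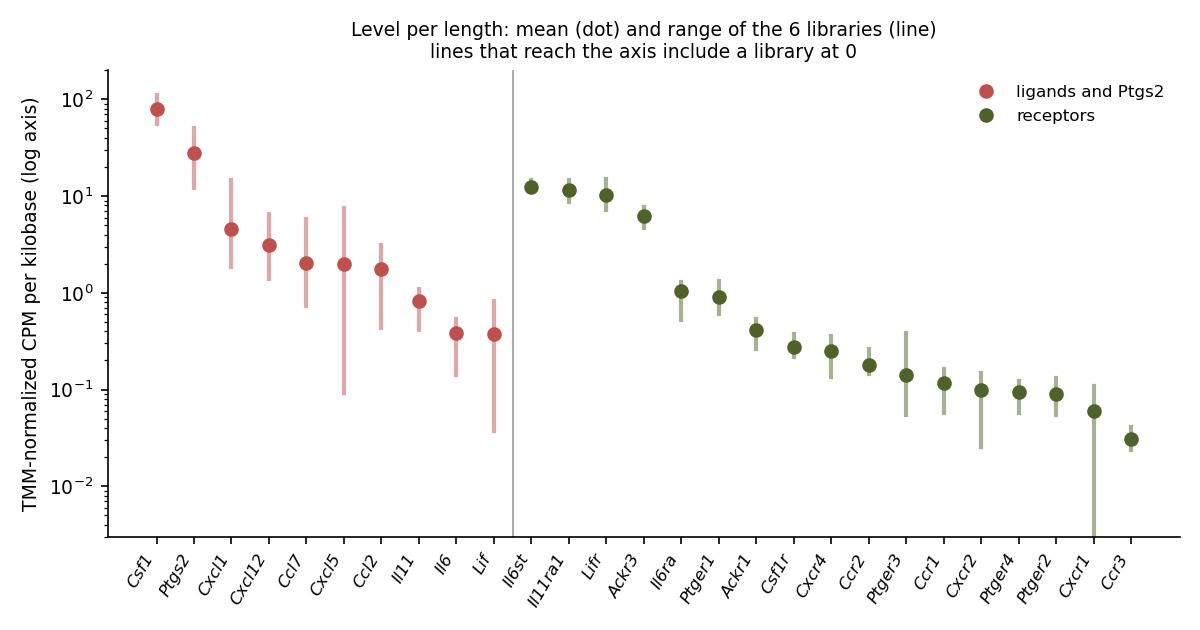
TMM-normalized CPM per kilobase of exon (log axis) of the ligand genes and Ptgs2 (red) and of receptor genes (green): dots are means and lines the range of the 6 libraries, and a line that reaches the axis includes a library at 0. Il6st, Il11ra1, Lifr and Ackr3 average 6.21 to 12.4 CPM per kilobase, and the receptors to the right of Ptger1 average 0.41 or less.

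Of 30 other chemokines, 9 passed the filter. *Cxcl16*, a chemokine made in a membrane-bound form, was at 6.95, 6.71 and 8.67 CPM in the *Postn-/-* libraries, against 4.73, 3.26 and 5.18 CPM in *wt*, with no overlap and a log2FC of 0.76 (SE 0.23, unadjusted p = 0.0111, adjusted p = 0.717 by edgeR). It was the only one of the 9 at this threshold, which 3.95% of all genes reached as higher, and 7.03% of all genes were higher without overlap. *Cxcl14*, with the highest level per kilobase of the 9, was at 8.08, 20.3 and 9.05 CPM in the *Postn-/-* libraries, against 7.07, 8.42 and 7.76 CPM in *wt*, again highest in *Postn-/-* replicate 2. The summed level of the 30 genes was 90.5 CPM in *Postn-/-* replicate 2 and 46.9 to 49.4 CPM in the other 5 libraries. Of 24 other cytokines, 8 passed the filter and none reached an unadjusted p of 0.05, beside 6.3% of all genes. *Il18* and *Il34*, which encodes another ligand of the *Csf1* receptor, had the highest levels per kilobase among them (13.2 and 2.53).

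Of 12 enzymes and transporters of prostanoids, 11 were tested and none had an unadjusted p of at most 0.05 by edgeR, beside 6.3% of all genes. *Ptgis*, prostacyclin synthase, and *Ptges3* led them per kilobase, at 89.7 and 82.3. *Pla2g4a*, the phospholipase that frees arachidonic acid for *Ptgs2*, was at 81.0, 134 and 103 CPM in the *Postn-/-* libraries, against 60.1, 122 and 89.2 CPM in *wt*. *Hpgd*, which degrades prostaglandins, was at 20.7, 53.6 and 14.6 CPM in the *Postn-/-* libraries, against 11.7, 110.0 and 24.2 CPM in *wt*. Both had the 2 replicate 2 libraries on top, as *Ptgs2* did. *Ptgs1*, the constitutive cyclooxygenase, did not, with its highest level in *wt* replicate 1 (60.2 CPM).

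In the list of 32 genes of NF-kappaB and gp130 signalling and response, all were tested, 26 had a positive log2FC and the median was 0.25, where 50.8% of all genes were positive. Among the positive ones, *Nos2* and *Zc3h12a* were above 1 CPM only in *Postn-/-* replicates 2 and 3. Both passed the filter through that genotype alone, so their signs were partly set by the filter. None of the 32 passed adjustment, and 6 reached an unadjusted p of at most 0.05 by edgeR, all higher in *Postn-/-*, where 3.95% of all genes were called higher. They were *Nfkbia*, which encodes an inhibitor of NF-kappaB (0.51, unadjusted p = 0.00104), the receptor *Tlr2* (0.66, unadjusted p = 0.00545), the subunit gene *Nfkb2* (0.65, unadjusted p = 0.00653), the matrix protease *Mmp3* (1.46, unadjusted p = 0.0125), the kinase *Jak2* (0.41, unadjusted p = 0.0266) and the adhesion molecule *Icam1* (0.57, unadjusted p = 0.0342), with the log2FC first and adjusted p = 0.717 for each by edgeR. The first of these was tight within each genotype, with *Nfkbia* at 39.1, 38.8 and 38.6 CPM in the *Postn-/-* libraries, against 26.95, 25.8 and 28.8 CPM in *wt*. *Nfkbia*, *Tlr2*, *Nfkb2* and *Jak2* were higher in *Postn-/-* without overlap, 4 of the 32, as *Csf1* was, where this held for 7.03% of all genes.

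Other genes of that list were highest in both replicate 2 libraries. Both replicate 2 libraries were the highest 2 of the 6 for 10 of the 32 genes and for 2 of the 9 tested genes of the set, *Cxcl5* and *Ptgs2*, where this held for 9.63% of all genes. The matrix collagenase *Mmp13* was at 922, 4309 and 439 CPM in the *Postn-/-* libraries, against 897, 4163 and 1319 CPM in *wt*. The acute-phase gene *Saa3* was at 15.1, 105 and 4.003 CPM in the *Postn-/-* libraries, against 1.92, 34.4 and 11.7 CPM in *wt*. The feedback inhibitor of gp130 signalling *Socs3* was at 11.01, 27.5 and 10.4 CPM in the *Postn-/-* libraries, against 4.50, 19.5 and 11.02 CPM in *wt*. In each of them the genotypes overlapped. Whether a replicate number marks a shared day or litter is not given in the labels. Of 9 tested fibroblast and synovial markers, 2 had both replicate 2 libraries on top, *Col1a2* and *Col1a1*, the latter at 1430 and 2059 CPM there and at 482 to 845 CPM in the other 4 libraries. *Prg4*, a synovial and surface cartilage marker, was lowest in replicate 2 of each genotype, at 838, 206 and 422 CPM in the *Postn-/-* libraries, against 439, 131 and 279 CPM in *wt*. The part of cell composition in these levels was not tested.

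**Figure D4:**
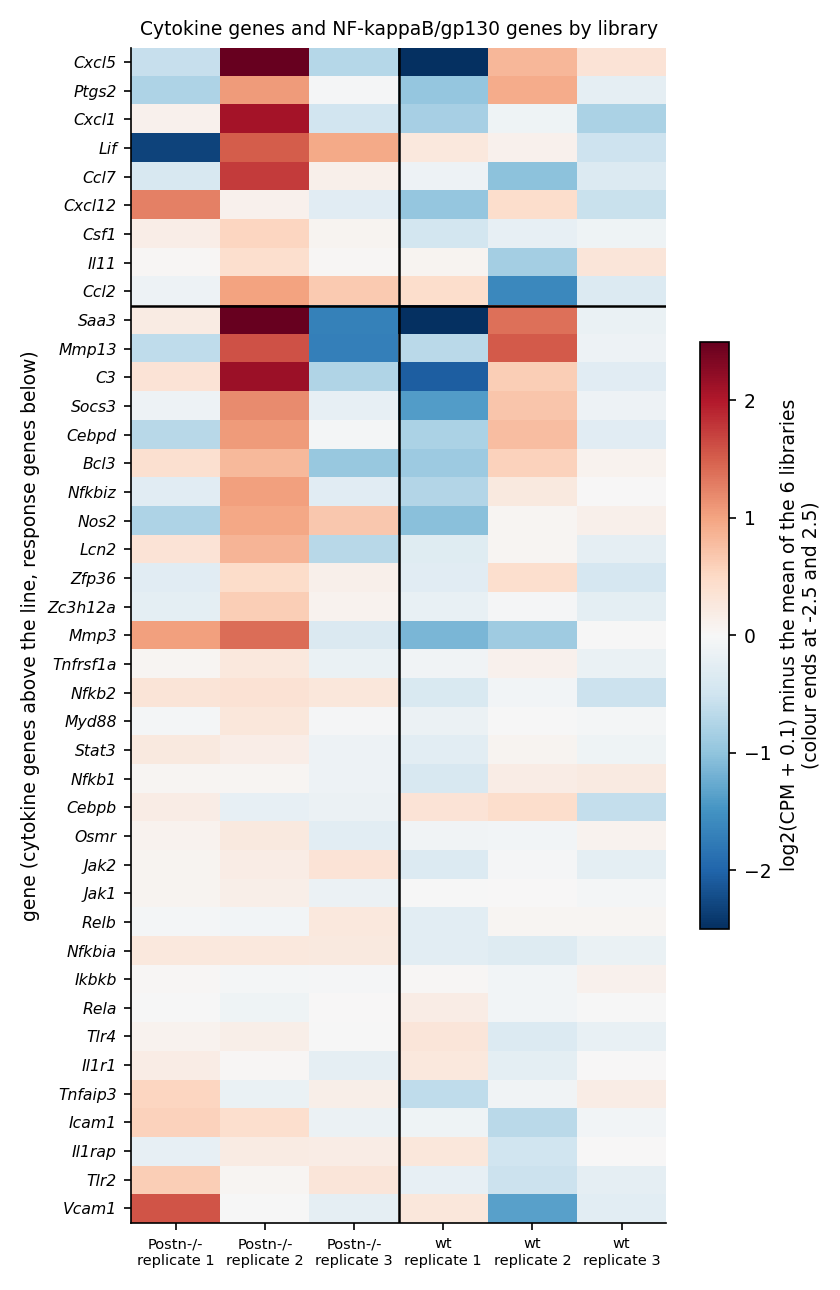
Level of each gene in each library as log2(CPM + 0.1) minus its mean over the 6 libraries, for the 9 tested cytokine, chemokine and Ptgs2 genes (above the line) and the 32 NF-kappaB and gp130 genes (below), each block sorted by the mean of the 2 replicate 2 libraries; red is above the gene's mean and blue below. Cxcl5, Ptgs2, Saa3, Mmp13, C3, Socs3 and Cebpd are red in both replicate 2 columns, while Ccl2 and Ccl7 are red in Postn-/- replicate 2 and blue in wt replicate 2.

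The likeness of each gene to the 127 tested genes of all lists was described by the distance between their log2 CPM, centred on each gene's mean, over the 6 libraries, so all distances share the same libraries and their depths. *Ptgs2* was nearest to *Cebpd*, a C/EBP factor (distance 0.25), then *Socs3* (0.85) and *Nfkbiz* (0.94). *Cebpd* was at 1.53, 5.41 and 2.43 CPM in the *Postn-/-* libraries, against 1.42, 4.39 and 2.06 CPM in *wt*, which is the order of the libraries for *Ptgs2*. *Cxcl5* was nearest to *Saa3* (1.47) and the complement gene *C3* (1.57), and *Cxcl1* to *Cxcl14* (1.30) and *Ccl9* (1.32). *Ccl2* was nearest to *Dmp1* (0.74), *Cd68* (1.02) and *Cd14* (1.04), and *Ccl7* to *Cxcl14* (1.17) and *Ccl2* (1.26). *Il11* was nearest to *Ptges* (0.55), *Lif* to the immediate early genes *Egr1* (1.44) and *Fos* (1.51), and *Cxcl12* to the cartilage genes *Comp* (0.96) and *Col9a2* (1.11) with *Ccl6* (1.07) between them. *Csf1* varied too little for this description, by 0.998 on the log2 scale.

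The remaining lists were counted in the same edgeR fit, in which no gene of any list passed adjustment. Of 13 immediate early genes, which respond within minutes to stimulation and handling, 2 reached an unadjusted p of at most 0.05 as higher in *Postn-/-* (*Junb* at 1.24, unadjusted p = 0.0172, and *Nr4a1* at 0.85, unadjusted p = 0.00898) and 1 as lower (*Myc* at -0.32, unadjusted p = 0.0374), adjusted p = 0.717 for each by edgeR. Of 14 chondrocyte markers, 3 did so as higher: the collagens *Col2a1* (0.68, unadjusted p = 0.0125), *Col9a3* (1.00, unadjusted p = 0.0128) and *Col11a2* (0.52, unadjusted p = 0.0406), adjusted p = 0.717 for each by edgeR. Over all genes tested, 3.95% were called higher and 2.35% lower at this threshold. No gene was called among 9 tested fibroblast and synovial markers, 7 macrophage and leukocyte markers, 5 osteoclast and bone markers or 4 endothelial and blood markers.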

How the data were processed

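The authors deposited 1 table per library with 41388 genes. The deposited columns are raw read counts per gene, which the authors made from 50-base single-end reads with STAR 2.0.4b and featureCounts 1.4.5, CPM, which the authors computed by scaling counts to the library total, and RPKM, the authors' CPM per kilobase of exon; CPM and RPKM were only checked against the counts. The labels list mm9, but 99.8% of matched gene positions in the tables lie on the GRCm38 gene of that identifier in GENCODE M21, which gave symbols for 40340 identifiers (97.5%). The labels mention no molecular identifiers, so limits set by counts cover counting error only.

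After 355 rRNA genes were removed, 14533 genes stood above 1 CPM in at least 2 libraries and were tested. In R 4.3.3, edgeR 4.0.16 (TMM, quasi-likelihood test, no covariate) compared *Postn-/-* with *wt*, with Benjamini-Hochberg adjustment over all 14533 genes and a threshold of 0.05. Each SE is the size of the log2FC divided by the root of its F statistic. The fit was checked on simulated data, and no result given here rests on that check. The 10 genes, the 11 other lists (receptors, other chemokines, other cytokines, prostanoid enzymes, NF-kappaB and gp130 genes, immediate early genes, and 5 sets of cell type markers) and the tests were chosen with earlier results of these data known. All 10 genes are named, and of the other lists every gene at an unadjusted p of at most 0.05, some of the 6 highest per kilobase and the nearest genes by distance over 6 libraries. One receptor of the lists is not reported here. The receptors given by counts, *S100a8*, *S100a9* and *Gm17268* were named after their values were seen. No library repeated another. Alternatives were DESeq2 1.42.0 (Wald test), limma 3.58.1 after voomWithQualityWeights (also with 2 surrogate variables from sva 3.50.0), edgeR with upper quartile scaling or size factors from DESeq2, stricter and no filtering, robust fitting, blocking by replicate number, and omitting libraries.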

Additional observations from a re-analysis of the deposited data

How the results depend on the processing

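*Csf1* kept its direction and an unadjusted p of at most 0.05 in 16 of 16 alternatives, and no gene of the set passed adjustment in any of them. The number of genes higher in *Postn-/-* at an unadjusted p of at most 0.05 was 2 of 9 by edgeR. It was 1 with voomWithQualityWeights and with the robust fit, and 4 with voomWithQualityWeights and 2 surrogate variables. With no filter, which tested all 10 genes, it was 6, and with the stricter filter, which tested 4, it was 2. The cause of these differences was not tested. No gene of the set was lower at that threshold in any alternative, so these are also its counts in either direction. Over all genes the number at that threshold in either direction was 916 by edgeR, 919 with the robust fit, 1337 with voomWithQualityWeights, 1997 with surrogate variables as well and 1797 of 34295 with no filter. *Cxcl1* was the gene lost with voomWithQualityWeights (unadjusted p = 0.154, adjusted p = 0.637) and with the robust fit of edgeR (unadjusted p = 0.0606, adjusted p = 0.728). Leaving out 1 library gave 1 to 4: 4 without *Postn-/-* replicate 1, and 1 without *Postn-/-* replicate 2 or without *wt* replicate 3. Over all genes, in either direction, these fits gave 868 of 14428 without *Postn-/-* replicate 1, 1104 of 14277 without *Postn-/-* replicate 2 and 878 of 14309 without *wt* replicate 3. The log2 fold change of *Cxcl5* reversed to -0.76 without *Postn-/-* replicate 2 and to -0.093 without replicate 2 of both genotypes, an alternative chosen after seeing the data. That of *Il11* reversed to -0.0084 without *wt* replicate 2 and to -0.16 without replicate 2 of both genotypes, and that of *Ptgs2* to -0.47 without *Postn-/-* replicate 2 and to -0.17 without *wt* replicate 1. Over the 6 fits with 1 library left out, the range was -0.76 to 2.19 for *Cxcl5*, -0.0084 to 0.53 for *Il11* and -0.47 to 0.84 for *Ptgs2*.

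Same-numbered libraries correlated at 0.08, 0.16 and 0.14 in their deviations from the genotype means, and the labels do not say what the numbers share, so they were not taken as pairs. Every library correlated best with its own number. With the replicate number as a block, 2 genes of the set remained at an unadjusted p of at most 0.05 (*Cxcl1* and *Csf1*, adjusted p of 0.603 for each by edgeR), while genes at that threshold over the whole table went from 916 to 1188. The block changed no other call in the set, but the unadjusted p of *Ptgs2* went from 0.769 to 0.0801 (adjusted p = 0.603 by edgeR).

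*Il6* had only 4 to 14 counts per library, and 2 values of tested genes rest on 4 counts (*Cxcl5* in *wt* replicate 1 and *Lif* in *Postn-/-* replicate 1).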
